A study of Mus musculus with 38 samples.

Results

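In cultured mouse epidermal stem cells (EpdSCs) that carried SOX9 without its transactivation domain (ΔTA-SOX9), the list of H3K4me1 domains held 31867 domains that the list from cells without doxycycline (DOX) lacked, and it lacked 19356 domains that the cells without DOX had. A domain of one list was called gained or lost when no domain of the other list overlapped it by at least 1 bp, and kept when one did. The comparison thus rests on 123338 domains with ΔTA-SOX9 and 110589 domains without DOX, out of 466295 domains in the 4 culture lists of the study. The gained domains carried the AP1 motif more often than the lost ones and, taken over all widths, more often than the kept ones. At which widths they exceeded the kept ones depended on the list from which kept domains were taken. They were seldom found in the H3K4me1 lists of skin. The lost domains were poorer in the AP1 motif than the gained and the kept ones, and richer in the KLF motif than the gained ones.

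The study asked how SOX9, which is switched on by DOX in epidermal cells, changes their enhancers. H3K4me1 was mapped by MINT-ChIP, in which chromatin cut with micrococcal nuclease (MNase) is tagged with barcodes and immunoprecipitated in a pool. The culture data come from 2 pooled libraries, one from a low and one from a high MNase digest, each of which held all culture conditions. Reads were merged before domains were called, so that each condition has 1 list, the difference between lists has no replicate check, and no test between conditions was possible.

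All cultured cells were primary keratinocytes of male mice whose back skin gave the cultures, with the transgene K14rtTA. It drives the DOX-dependent activator rtTA from the keratin 14 promoter in basal epidermal cells. The study's methods describe the isolation of primary EpdSCs from newborn pups. Each culture had been transduced with a lentivirus that carried a MYC-tagged SOX9 variant behind a DOX-responsive TRE promoter and had been selected with puromycin. The first group carried ΔTA-SOX9 and received DOX. The reference group carried WT SOX9 and received no DOX. The variant, the DOX and the transduced culture therefore differ together in this comparison and cannot be told apart. A list from ΔTA-SOX9 cells without DOX was not analysed here. WT SOX9 with DOX and SOX9 without its DNA-binding HMG domain (ΔHMG-SOX9) with DOX are given for reference, each against the same list without DOX. The skin lists used below are not from culture. By the study's methods they come from EpdSCs sorted by flow cytometry from back skin of male mice. Those mice carried the keratin 14 rtTA transgene and a MYC-tagged *Sox9* transgene behind a TRE promoter.

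H3K4me1 is laid down by the methyltransferases MLL3 and MLL4 at nucleosomes that flank enhancers, and it marks enhancers whether or not they are active. SOX9 binds DNA through its HMG domain and recruits co-factors through its C-terminal transactivation domain. It is needed to make hair follicle stem cells and is normally silent in the epidermis between follicles. AP1 is a dimer of FOS and JUN proteins that acts at many enhancers of keratinocytes, mainly under growth and stress, and KLF factors take part in the barrier programme of the epidermis.

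Sequences of single domains show the kind of site that entered or left the lists. Each is the central 200 bases of a domain, read from the plus strand of GRCm38, with matches to the motifs in capitals. Both strands were searched. The SOX motif was spelled ACAATGG. The AP1 motif was spelled TGANTCA, where N is any base. The letters used for GATA factors were AGATAA. RUNX factors were searched as TGTGGTT. For TEAD factors the letters were GGAATG. The KLF motif was spelled GGGNGTGG. Matches of different motifs may share bases, and a match is a run of letters, not a bound site. The first line is the gained domain of the highest fold enrichment among those at least 500 bp wide, an intergenic site at chr2:22038959-22039158. The next 3 lines are gained domains with at least 2 AP1 matches in the bases shown, taken outside UTRs from those of highest fold with several classical AP1 sites, in an intron of *Ccser1* at chr6:62315349-62315548, between genes at chr6:88174748-88174947 and in *Rbms3* at chr9:117322033-117322232. They were chosen for these letters, as were the last 2 lines, which are lost domains of high fold with a KLF match at chr1:171012040-171012239 and chr4:81999671-81999870. The fifth line is the gained domain of highest fold near *Sox9* at chr11:112750756-112750955, and the sixth is the lost domain of highest fold among those at least 500 bp wide, in an intron of *Wdr41* at chr13:95020584-95020783.
Gained, highest fold: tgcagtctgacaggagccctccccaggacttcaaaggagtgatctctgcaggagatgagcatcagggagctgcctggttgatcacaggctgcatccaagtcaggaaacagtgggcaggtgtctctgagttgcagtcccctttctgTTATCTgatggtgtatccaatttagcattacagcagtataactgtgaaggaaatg
Gained, Ccser1: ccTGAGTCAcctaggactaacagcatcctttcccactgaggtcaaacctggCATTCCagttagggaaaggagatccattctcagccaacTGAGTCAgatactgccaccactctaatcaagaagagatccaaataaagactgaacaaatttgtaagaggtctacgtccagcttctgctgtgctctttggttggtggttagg
Gained, intergenic: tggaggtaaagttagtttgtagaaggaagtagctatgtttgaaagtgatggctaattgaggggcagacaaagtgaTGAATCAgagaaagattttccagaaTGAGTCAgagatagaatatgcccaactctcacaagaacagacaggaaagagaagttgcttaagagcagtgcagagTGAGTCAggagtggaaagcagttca
Gained, Rbms3: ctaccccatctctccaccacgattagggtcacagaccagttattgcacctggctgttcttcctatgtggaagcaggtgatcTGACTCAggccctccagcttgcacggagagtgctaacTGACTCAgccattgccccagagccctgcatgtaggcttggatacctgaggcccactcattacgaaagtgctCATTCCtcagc
Gained, near Sox9: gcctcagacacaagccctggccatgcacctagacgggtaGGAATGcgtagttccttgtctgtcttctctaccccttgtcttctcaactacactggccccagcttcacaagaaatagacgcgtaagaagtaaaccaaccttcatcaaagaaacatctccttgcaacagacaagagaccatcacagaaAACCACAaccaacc
Lost, Wdr41: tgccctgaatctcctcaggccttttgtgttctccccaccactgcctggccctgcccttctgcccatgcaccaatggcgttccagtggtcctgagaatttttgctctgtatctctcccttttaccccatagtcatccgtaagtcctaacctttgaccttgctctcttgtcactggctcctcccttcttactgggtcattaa
Lost, chromosome 1: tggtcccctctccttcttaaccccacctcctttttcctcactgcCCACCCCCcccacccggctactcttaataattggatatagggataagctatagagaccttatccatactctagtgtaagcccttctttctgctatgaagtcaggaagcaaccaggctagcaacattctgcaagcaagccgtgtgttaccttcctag
Lost, chromosome 4: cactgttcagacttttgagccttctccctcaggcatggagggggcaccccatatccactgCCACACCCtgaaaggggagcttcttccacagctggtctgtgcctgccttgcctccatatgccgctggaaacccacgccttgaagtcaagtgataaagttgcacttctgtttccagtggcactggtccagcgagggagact

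The AP1 motif separated gained from lost domains more than any other motif searched. It occurred in the central 500 bp of 33.4% of gained domains (95% exact binomial interval 32.9 to 33.9), of 19.7% of lost domains (19.1 to 20.3) and of 28.8% of kept domains of the ΔTA-SOX9 list. Over all domains of both lists the share was 28.5%. The classical AP1 site, with C or G at its centre as in the *Rbms3* domain above, was in 24.7% of gained and 13.7% of lost domains, and the form with A or T at its centre was in 11.4% and 6.94%. At least 2 classical sites stood in 2.58% of gained domains and in 0.785% of lost ones, while kept domains of the ΔTA-SOX9 list held them at 2.47%.

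The share of gained domains with an AP1 match rose with their fold enrichment, which is the pileup of reads over the local background. It was 28.0% below a fold of 3, 34.0% from 3 to 4, 40.1% from 4 to 5 and 47.6% from 6 upwards. In lost domains the same shares were 18.2%, 20.5%, 20.7% and 27.1%. Kept domains of the ΔTA-SOX9 list also rose, from 22.4% below 3 to 40.4% from 6. Against kept domains of the ΔTA-SOX9 list, the excess of gained domains did not extend to wide domains. The shares were 32.6% against 26.4% under 400 bp and 36.4% against 31.9% from 600 bp to under 1000 bp, but 30.4% against 30.5% from 1000 bp to under 2000 bp and 23.8% against 23.1% at 2000 bp or more. Kept domains of the list without DOX gave another order. They were at 31.65% (30.8 to 32.5) under 400 bp, close to gained domains. From 1000 bp to under 2000 bp they were at 27.5%, and at 2000 bp or more at 20.7%, both below gained domains. Gained and lost domains differed in each of the 4 classes of base composition examined. Where GC content was below 42% the AP1 shares were 36.2% of gained and 24.98% of lost domains, and from 50% upwards they were 28.1% and 12.8%.

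The KLF motif went the other way. It was found in 13.9% of gained domains (13.5 to 14.3), in 20.02% of lost domains (19.5 to 20.6) and in 18.1% of all. Kept domains held it at 18.5% in the ΔTA-SOX9 list and at 18.9% in the list without DOX, so that lost domains stood closer to kept ones than gained domains did. From 1000 bp to under 2000 bp of width, lost domains were at 17.1% and kept domains of the list without DOX at 18.8%. The median GC content of the windows was 46% in gained, 46.4% in lost and 47.0% in kept domains. In windows with a GC content of 46% to 50% the KLF shares were 15.7% of gained and 21.6% of lost domains.

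The SOX motif hardly distinguished the sets. It was in 7.05% of gained domains (6.77 to 7.33), in 6.57% of lost ones (6.22 to 6.93) and in 6.50% of all. In the list of WT SOX9 with DOX, set against the same list without DOX, gained domains had the SOX motif at 11.6% and the AP1 motif at 19.4%. Domains gained with ΔHMG-SOX9 had them at 7.30% and 28.7%. The GATA, RUNX and TEAD motifs were at 25.6%, 12.2% and 30.9% of domains gained with ΔTA-SOX9 and at 24.1%, 11.8% and 30.5% of all domains.

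**Figure D1:**
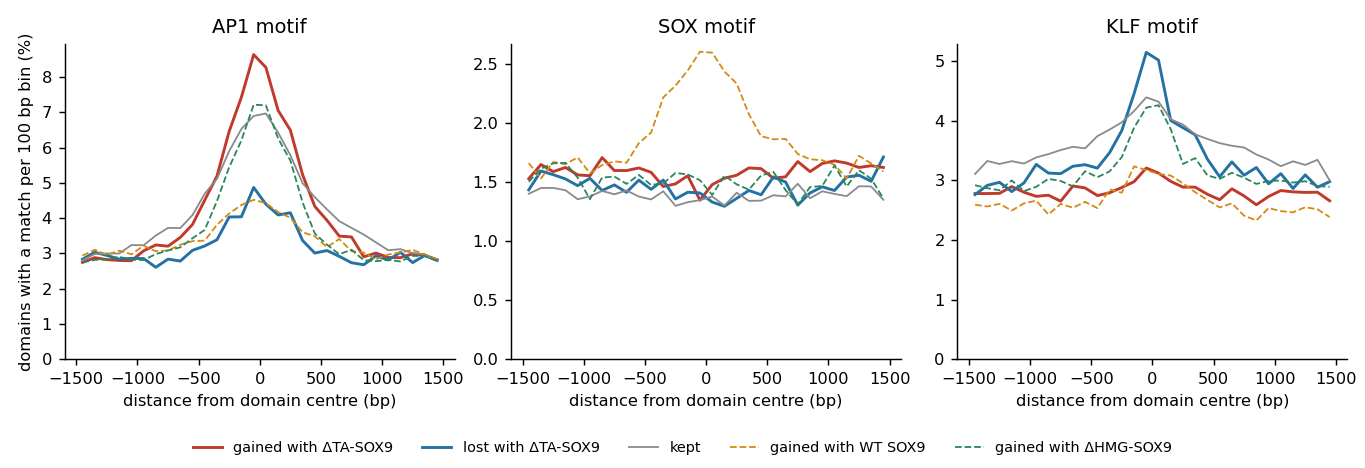
Share of domains (%) with a motif match in each 100 bp bin, against the distance from the domain centre (bp), for AP1, SOX and KLF; solid lines are domains gained, lost or kept with ΔTA-SOX9 (kept in its own list) and dashed lines are domains gained with WT SOX9 and ΔHMG-SOX9. The AP1 line of gained domains peaks at the centre at 8.64% and falls to 2.75% at the left edge. The SOX line of domains gained with ΔTA-SOX9 has no central peak. The KLF line peaks in lost domains at 5.14% and in domains gained with ΔHMG-SOX9 at 4.26%.

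Around domain centres the AP1 motif formed a peak. In bins of 100 bp, a match was present in 8.64% of gained domains just left of the centre, against 2.75% at 1500 bp. Lost domains reached 4.87% and kept ones 6.97%. For SOX the bins beside the centre held 1.35% and 1.48% of domains gained with ΔTA-SOX9, below the 1.53% to 1.71% of bins more than 500 bp away, whereas domains gained with WT SOX9 reached 2.61%. The KLF motif peaked in lost domains at 5.14% and stayed at 3.20% in gained ones. Domains gained with ΔHMG-SOX9 also had a central peak, at 4.26%. In the central 200 bp, kept domains held the KLF motif at 8.12% with ΔTA-SOX9 and at 8.31% without DOX. These shares were nearer the 9.43% of lost domains than the 5.96% of gained ones.

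Gained domains were also the ones least often found in skin. Of the 31867 gained domains, 9374 overlapped an H3K4me1 domain of skin EpdSCs before DOX (D0), which is 29.4% (28.9 to 29.9). The share was 52.9% of the lost domains (52.2 to 53.6), 68.7% of the kept domains with ΔTA-SOX9 and 68.5% of the kept domains without DOX. In skin 2 weeks after SOX9 was switched on (W2) the order was the same, at 25.9% of gained, 44.1% of lost and 62.2% of kept domains with ΔTA-SOX9. H3K27ac, which accompanies enhancer and promoter activity, covered few of either. At D0 its peaks overlapped 2.75% of gained, 6.97% of lost and 16.6% of kept domains, and at W2 they overlapped 3.09%, 7.48% and 17.2%.

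The order was the same at small and large widths. Among domains under 400 bp, 28.6% of gained, 46.2% of lost and 60.0% of kept domains with ΔTA-SOX9 were found in skin at D0, and among those of 2000 bp or more the shares were 36.9%, 73.1% and 82.7%. In gained, lost and kept domains alike, the share found in skin was lower among the strongest than among the weakest. When the ΔTA-SOX9 list was cut by fold into 10 classes of equal size, 50.7% of gained domains in class 1, the weakest, were found at D0, 26.5% in class 5 and 18.03% (16.1 to 20.1) in class 10. Kept domains of the same list fell from 84.8% in class 1 to 56.2% in class 10. Lost domains, in classes of the list without DOX, were at 77.7% in class 1 and already at 50.7% in class 2. From class 2 to class 10 they showed no further steady fall and lay between 46.5% and 50.7%, with 49.4% (45.1 to 53.8) in class 10. The AP1 motif was more frequent in gained domains absent from skin at D0 (36.5%) than in those present there (26.0%). Kept domains of the ΔTA-SOX9 list had nearly the same shares, 36.9% and 25.1%.

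**Figure D2:**
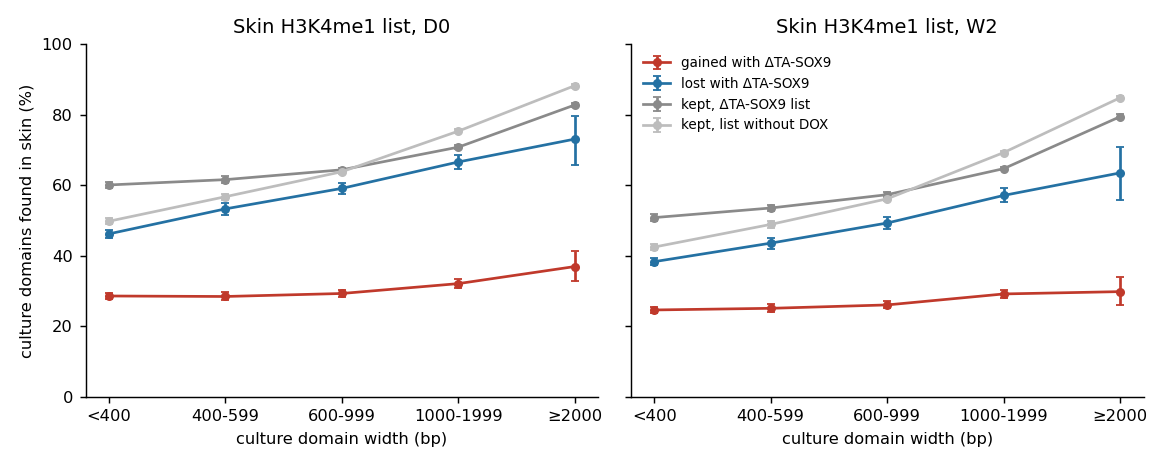
Share of culture domains (%, with exact 95% binomial intervals) that overlapped a skin H3K4me1 domain at D0 or W2, by width of the culture domain (bp). Gained domains lie between 28.4% and 36.9% at D0 at every width, below lost domains (46.2% to 73.1%) and kept domains.

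Domains that skin had at W2 and not at D0 took 4.50% of the gained and 4.04% of the lost domains with ΔTA-SOX9. In the comparison of WT SOX9 with the same list without DOX they took 9.75% of gained and 3.28% of lost domains. Domains gained with WT SOX9 were found at D0 in 29.9% and at W2 in 36.4%, and those gained with ΔHMG-SOX9 in 34.9% and 29.3%.

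By size and strength the changed domains were the weak end of both lists, with a longer tail on the gained side. Gained domains took 25.8% of the ΔTA-SOX9 list, and lost domains took 17.5% of the list without DOX. Their median width was 493 bp for gained, 424 bp for lost and 1049 bp for kept domains of the ΔTA-SOX9 list, and their median fold was 3.25, 3.15 and 3.66. A q-value of at most 0.01 was reached by 70.4% of gained, 68.0% of lost and 92.6% of kept domains. Of domains under 400 bp, 52.7% of the ΔTA-SOX9 list were gained and 41.6% of the list without DOX were lost, and of those of 2000 bp or more, 3.51% and 1.22%.

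The gained share was above the lost share in every class of fold. In class 10 of fold, 1492 domains, 12.1% (11.5 to 12.7), were gained, and 532 domains, 4.81% (4.42 to 5.23), were lost. In class 1 the shares were 31.5% and 26.0%, and in class 3 they were 36.2% and 26.45%. Few changes were shifts of an edge. The nearest domain of the other list lay at a median distance of 5817 bp from a gained and 3537 bp from a lost domain, and it lay under 1000 bp away from 4.45% and 6.93%.

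**Figure D3:**
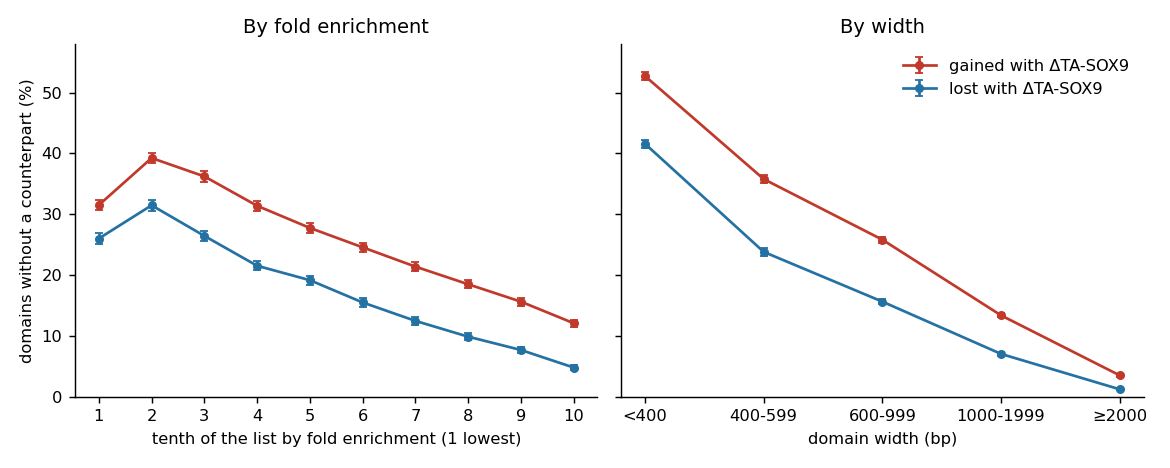
Share of domains without a counterpart (%, with exact 95% binomial intervals) by class of fold enrichment, with 10 equal classes within each list (left) and by width (bp, right). Gained domains fall from 39.2% in class 2 to 12.1% in class 10, and lost domains fall from 31.5% to 4.81%.

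The surplus of gained over lost domains is largely set by the lengths of the lists, since the kept domains of each, 91471 and 91233, were nearly equal in number. By the same arithmetic, when the list with ΔTA-SOX9 was shortened to its 110589 domains of highest score, 24292 were gained and 24197 were lost. Read totals of the pooled conditions are not in the lists, so the depth behind each is unknown. Where 1 domain met 1 domain (85587 pairs), the median fold was 3.72 without DOX and 3.71 with ΔTA-SOX9, and the median of the log2 ratio of folds was -0.01. The bases shared by both lists were 87.1 Mb, 46.1 Mb were only in the ΔTA-SOX9 list and 32.5 Mb only in the list without DOX.

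With the other variants, against the same list without DOX, 33788 domains were gained and 27731 lost with WT SOX9 (29.1% and 25.1% of their lists), and 22462 were gained and 17274 lost with ΔHMG-SOX9 (19.3% and 15.6%). These comparisons share their reference and are not independent of each other. Gained domains had a median width of 630 bp with WT SOX9 and 406 bp with ΔHMG-SOX9, with 493 bp for ΔTA-SOX9 between them. The ratio of gained to lost domains was 1.65 with ΔTA-SOX9, 1.22 with WT SOX9 and 1.30 with ΔHMG-SOX9, but it depends on the lengths of the lists. With lists of equal length, 24292 domains were gained and 24197 lost with ΔTA-SOX9. The numbers were then 30772 and 29991 with WT SOX9 and 19135 and 19483 with ΔHMG-SOX9.

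Changed domains lay mostly away from promoters. Over 2500 bp from the nearest annotated start site were 86.2% of gained (85.9 to 86.6), 80.7% of lost (80.1 to 81.2) and 73.7% of kept domains of the ΔTA-SOX9 list. Only 612 gained domains (1.92%) and 664 lost domains (3.43%) covered a start site, against 7.57% of kept domains. The centre was intronic in 52.5% of gained and 53.2% of lost domains and intergenic in 41.7% and 40.2%.

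Gains were relatively frequent where genes are sparse. In 1 Mb windows without the start of a protein-coding gene, 40.5% of the domains with ΔTA-SOX9 were gained and 23.5% of those without DOX were lost. In windows with 15 or more such starts the shares were 21.4% and 15.4%. By chromosome, the gained share ran from 22.4% on chromosome 11 to 30.2% on chromosome 14 among autosomes, and the lost share from 15.7% on chromosome 19 to 20.5% on chromosome 13. The X chromosome had 30.3% gained (28.5 to 32.1) and 27.5% lost (25.8 to 29.3). The window with the most gained domains held 44, at 28 to 29 Mb of chromosome 2 with *Col5a1* and *Olfm1*.

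The gained domains of highest fold among those at least 500 bp wide lay far from the starts of protein-coding genes. They were at chr2:22038769-22039349 (fold 10.1), chr2:78833195-78834182 (9.17), in an intron of *Armc4* on chromosome 18 (9.10), in an intron of *Aff3* at chr1:38382046-38382562 (8.94) and in an intron of *Ccser1* at chr6:62315129-62315768 (8.83). Of these 5, the ΔHMG-SOX9 list also held a domain at all but the second, and the WT SOX9 list at the first alone. Only the domain in *Aff3* overlapped a skin H3K4me1 domain at D0. The nearest start of a protein-coding gene was between 33942 and 940108 bp away.

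The lost domains of highest fold among those at least 500 bp wide were at chr13:95020318-95021050 in *Wdr41* (8.32), at chr14:101925934-101926668 in *Lmo7* (8.14), between genes at chr5:25268252-25268794 (8.10) and chr12:88038877-88040139 (8.01), and beside the odorant receptor gene *Olfr1437* at chr19:12326748-12327292 (7.62). The first 3 were also in the skin list at D0. The lists of WT SOX9 and of ΔHMG-SOX9 both held a domain at the first 4.

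Genes were then ranked by the changed domains within 50 kb of their 5′ end. Of 21911 protein-coding genes, 15750 (71.9%) had at least 1 gained and 13240 (60.4%) at least 1 lost domain, and 5611 (25.6%) had 3 or more gained and 3314 (15.1%) 3 or more lost domains. With lists of equal length this order turned round, to 3348 genes with 3 or more gained and 5148 with 3 or more lost domains.

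*Sox9* itself (chromosome 11, 112782224 to 112787760, plus strand) had 7 gained and no lost domain within 50 kb. Its neighbourhood held 7 domains without DOX and 14 with ΔTA-SOX9, and the covered length went from 7.64 kb to 14.2 kb. The gained domains were at 38.9, 31.6 and 27.1 kb before and at 11.9, 24.4, 36.0 and 40.1 kb after the start of the gene, with folds between 2.51 and 4.07. None of them lies over the gene, whose coding sequence the lentivirus also carries. Against the same reference, WT SOX9 had 2 gained and 2 lost domains there (8.56 kb covered) and ΔHMG-SOX9 had 3 and 2 (8.38 kb). Over 9 other ways of calling changes the count for ΔTA-SOX9 ran from 1 to 7 gained domains, with 0 lost in each.

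The domain over the *Sox9* coding sequence was kept. Its right end lay 1 bp past the last base of the stop codon without DOX and 1 bp before it with ΔHMG-SOX9. With WT SOX9 it ended 23 bp before that base, and with ΔTA-SOX9 257 bp beyond it, in the 3′ UTR. The ΔHMG-SOX9 list had a second domain over the gene, 251 bp wide in the 3′ UTR, which ended 1732 bp beyond the stop codon. Whether reads from the introduced coding sequence contribute to these domains was not tested.

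The genes with the most gained domains were *Sh2d1b2*, an adaptor of immune receptors (12 gained, 0 lost), *Eif5b*, a translation initiation factor (11 gained, 1 lost), *Nnat*, an imprinted gene best known from brain (10 gained, 0 lost) and *Cpn1*, a subunit of carboxypeptidase N (10 gained, 1 lost). At *Nnat* the domains grew from 9 to 19 and the covered length from 9.996 to 23.02 kb. At *Sh2d1b2* the domains grew from 2 to 14, with the strongest at a fold of 6.51. At *Olfr9*, an odorant receptor gene, there were 9 gained and 0 lost domains, one of them 2367 bp wide at a fold of 6.13.

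A further 5 genes had 9 gained domains each. They were *Rgs3*, a regulator of G protein signalling, *Uchl4*, *Ccdc182*, *G0s2*, an inhibitor of triglyceride breakdown, and *Atp5mpl*, a small protein of ATP synthase. *Eif5b* and *Atp5mpl* also had 6 and 5 gained domains with WT SOX9 and 8 and 6 with ΔHMG-SOX9, whereas *Nnat* and *Olfr9* had 1 and 0 with WT SOX9 and 5 and 3 with ΔHMG-SOX9. Over 9 other ways of calling changes, the lowest count of these 10 genes ran from 0 at *Eif5b* to 4 at *Nnat* and *Olfr9*.

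The genes with the most lost domains had 8 or 9 each. *Gclc*, the catalytic subunit of the enzyme that starts glutathione synthesis, had 9 lost and 1 gained domains, and the covered length went from 18.7 to 10.9 kb. *Ppl*, which encodes periplakin of desmosomes and the cornified envelope, had 8 lost and 1 gained (23.1 to 11.2 kb). *Dsc1*, a desmocollin of differentiated epidermis, and *Vdr*, the vitamin D receptor, each had 8 lost and 0 gained, and their covered length went from 17.4 to 11.4 kb and from 20.8 to 14.9 kb. *Smad2*, a transducer of TGF-beta signals, had 8 lost and 0 gained.

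Further genes of this rank were *Hist1h2bh* in a histone gene cluster (9 lost, 0 gained), *Zfp710* (8 and 0), *Plxdc2* (8 and 0) and *Ptp4a3*, a phosphatase (8 and 3). At *Hist1h2bh* the covered length fell from 18.6 to 7.56 kb. Values of the other variants against the same reference differed from gene to gene. *Dsc1* had 8 lost domains with WT SOX9 and 4 with ΔHMG-SOX9, *Hist1h2bh* had 6 and 8, and *Ppl* had 7 and 2. *Gclc* had 2 and 5. Under the other ways of calling changes *Dsc1* ran from 0 to 9 lost domains, *Gclc* from 2 to 10 and *Zfp710* from 4 to 9.

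**Figure D4:**
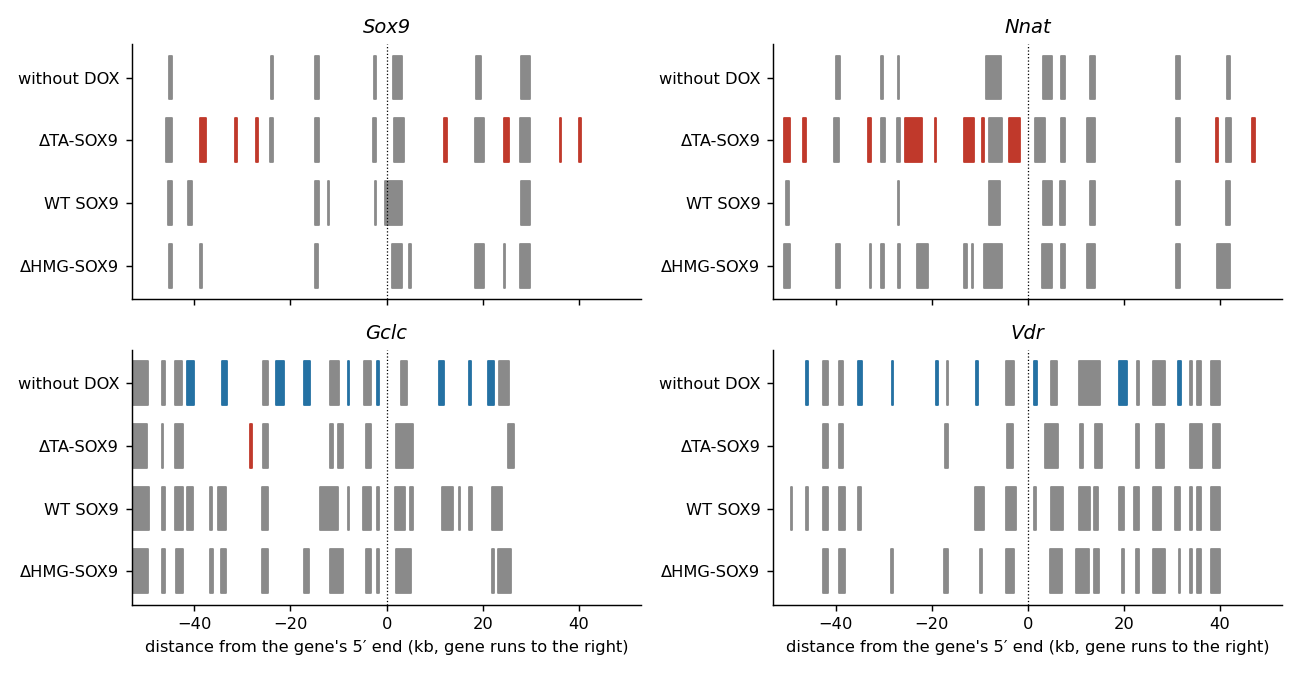
H3K4me1 domains of the 4 culture lists (bars to scale) against the distance from the 5′ end of Sox9, Nnat, Gclc and Vdr (kb, gene direction to the right). Red bars were gained and blue bars lost in the comparison of ΔTA-SOX9 with cells without DOX (7 gained at Sox9, 10 at Nnat, 9 lost at Gclc, 8 at Vdr), and all other bars are grey.

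Gene lists are set beside all 21911 protein-coding genes, which had means of 1.64 gained and 1.18 lost domains per gene, so that gained domains exceed lost ones in general. A domain near several genes of a list counts once for each. Of 18 genes of epidermal basal cells and identity, 6 (33.3%) had 3 or more gained and 3 (16.7%) had 3 or more lost domains. Over all genes the shares were 25.6% and 15.1%. The 18 genes lie in neighbourhoods rich in domains, with a median of 14.5 without DOX and 15 with ΔTA-SOX9, against 7 and 8 over all genes. A similar share of genes is therefore not a similar share of the domains present. The 18 genes held 34 gained and 33 lost domains in all. *Krt5* had 4 gained and 3 lost, *Krt14* 1 and 2, *Gata3* 1 and 1, and *Trp63*, the master factor of stratified epithelia, 1 and 0. The transcription factor gene *Tfap2c* had 5 gained and 2 lost and *Grhl3*, a factor of barrier formation, 2 gained and 5 lost domains.

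Genes of epidermal differentiation held fewer gained than lost domains, with 20 gained and 33 lost domains over 13 genes, of which 9 had more lost than gained. Over all 21911 genes, 5477 had more lost and 9515 more gained domains. The 13 genes lie in neighbourhoods rich in domains, with a median of 13 without DOX and 12 with ΔTA-SOX9, against 7 and 8 over all genes. Their lost count is therefore not a share of the domains present, and 8 of the 33 lost domains were near *Dsc1*. Beside *Dsc1*, *Lor*, which encodes loricrin, had 1 gained and 3 lost domains, *Krt10* had 1 and 3, *Notch3* had 2 and 4 and *Dsg1a* had 1 and 3, while *Tgm3* had 3 and 0. WT SOX9 gave 22 gained and 42 lost and ΔHMG-SOX9 21 and 26 over the same genes.

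The 15 hair follicle stem cell genes had 31 gained and 32 lost domains. *Krt24* (6 gained, 2 lost) and *Cd34* (3 and 0) had more gained domains, as *Sox9* did, while *Vdr*, *Nfatc1*, a quiescence factor (1 and 6), and *Krt15* (1 and 4) had more lost ones. *Runx1* had 2 and 0.

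Signalling pathways were mixed. The 9 Hedgehog genes had 13 gained and 15 lost domains, with 3 and 0 at *Gli2* but 0 and 4 at *Gli1* and 1 and 4 at *Gli3*, the 3 transcription factors of the pathway. The 16 Wnt genes had 23 gained and 27 lost, with 4 and 1 at *Dkk3* and 0 and 3 at *Tcf7*. Covered length did not always follow the counts. It went from 21 to 18.6 kb at *Gli2*, from 13.86 to 8.72 kb at *Gli1* and from 12.88 to 9.515 kb at *Gli3*. At *Tcf7* it went from 9.135 to 9.279 kb and at *Dkk3* from 13.41 to 21.17 kb. The 16 genes of TGF-beta and BMP signalling had 32 and 34. There the receptor gene *Tgfbr2* had 5 gained and 0 lost and the inhibitor gene *Smad7* 5 and 1, against 0 and 8 at *Smad2*.

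Genes of AP1 factors had 28 gained and 16 lost domains over 10 genes, or 2.8 and 1.6 per gene against 1.64 and 1.18 over all genes. At least 1 gained domain was near 10 of 10, against 71.9% of all genes. *Batf3* had 5 and 0, *Fos* 5 and 4, *Batf* 4 and 0 and *Jun* 2 and 0. The covered length went from 12.07 to 18.06 kb at *Batf3* but from 9.68 to 9.35 kb at *Batf*. With WT SOX9 the 10 AP1 genes had 20 gained and 22 lost domains, and with ΔHMG-SOX9 13 and 15. They lie in neighbourhoods rich in domains. The median was 14 domains without DOX and 15.5 with ΔTA-SOX9, against 7 and 8 over all genes. A high count per gene is therefore not a high share of the domains present. Their median covered length went from 20.3 to 19.8 kb. The 10 stress and wound genes had 28 and 23, but many lie side by side and share domains, so that only 16 gained and 15 lost domains were distinct. *S100a8* had 5 and 1 and *S100a9* 5 and 0, with the same 5 gained domains, *Krt8* and *Krt18* each had the same 4 and 4, and *Sprr1b* had 2 and 5. The 11 genes of enhancer co-factors had 19 and 14, with 2 and 1 at *Kmt2d*, which encodes MLL4.

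Regulators of epithelial-mesenchymal transition had 20 gained and 8 lost domains over 10 genes, or 2.0 and 0.8 per gene against 1.64 and 1.18 over all genes. Of them 30% had 3 or more gained and 10% had 3 or more lost domains, close to the 25.6% and 15.1% of all genes. The median was 5 domains without DOX and 7 with ΔTA-SOX9, against 7 and 8 over all genes. The means are not shares of the domains present. *Cdh2*, which encodes N-cadherin, had 5 and 0, *Twist2* 3 and 1 and *Fn1*, which encodes fibronectin, 5 and 3. *Vim* had 0 gained and 1 lost.

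**Figure D5:**
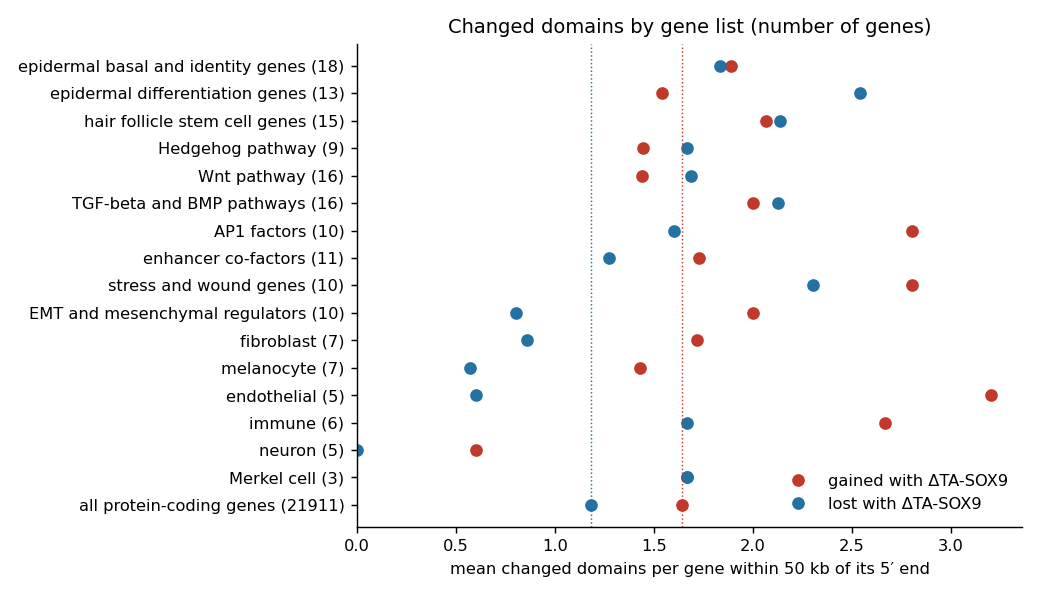
Mean number of gained (red) and lost (blue) domains per gene within 50 kb of the 5′ end, for each gene list with the number of its genes, beside all protein-coding genes (dotted lines). Lost points lie right of gained ones for epidermal differentiation genes (33 against 20 domains). They do so by less for Wnt (27 against 23), Hedgehog (15 against 13), TGF-beta and BMP (34 against 32) and hair follicle stem cell genes (32 against 31). Gained points lie far right of lost ones for AP1 factors (28 against 16) and endothelial markers (16 against 3). Means are not scaled by the number of domains near each gene. Its median with ΔTA-SOX9 was 15.5 for AP1 factors, 12 for epidermal differentiation genes and 8 for all genes.

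Markers of other cell types were examined in the same way. Endothelial markers had 16 gained and 3 lost domains over 5 genes, 7 and 0 of them at *Cdh5* and 5 and 0 at *Tek*, which had no domain without DOX. Per gene the endothelial markers had 3.2 and 0.6, against 1.64 and 1.18 over all genes. Fibroblast markers had 12 and 6 over 7 genes, melanocyte markers 10 and 4 over 7, immune markers 16 and 10 over 6, neuron markers 3 and 0 over 5 and Merkel cell markers 5 and 5 over 3. With WT SOX9 the endothelial markers had 6 gained and 10 lost and the melanocyte markers 24 and 6. Whether other cells contribute to the gained domains was not tested.

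The labelled cell type was only partly reflected in the extent of H3K4me1. Within 50 kb, the median covered length without DOX was 19.99 kb for epidermal basal and identity genes, against 7.56 kb for all protein-coding genes. Markers of other cell types ran from 3.24 kb for Merkel cells, 3.35 kb for fibroblasts, 4.06 kb for neurons and 4.46 kb for endothelium to 8.88 kb for melanocytes and 12.4 kb for immune cells. Genes of AP1 factors (20.3 kb) and of stress and wounds (19.1 kb) were covered as widely as the epidermal genes, so that wide cover does not single out epidermal identity. With ΔTA-SOX9 the epidermal genes were at 19.1 kb and all genes at 8.43 kb. Within 2500 bp of the 5′ end, H3K4me1 touched 3 of 5 keratinocyte markers in both lists, all but *Trp63* and *Itga6*, and 5 of 5 neuron markers, so that a domain at a start was not by itself a sign of the cell type.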

How the data were processed

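Members and gene lists were chosen with earlier results of these data known. Groups came from the sample labels, and the condition of each list from its name. The submitters' processing notes name Bowtie2 2.2.9, SAMtools 1.9, Picard, MACS2 2.1.1, SICER 0.0.36 and deepTools 2.5.4 with build mm10. The study's methods name epic2 for H3K4me1, but the culture lists have the layout of MACS2 broad peaks, and settings and controls are not given in the sources used here. The deposited culture lists hold for each domain a score, a fold enrichment and q-values as −log10, made by the authors from merged reads, with q up to 0.0982. The deposited skin lists hold a p-value per H3K4me1 domain and, for H3K27ac, a score, a fold and −log10 values. Depth is unknown.

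Domains on 21 chromosomes were used, and 2 or 3 mitochondrial ones per list were set aside. Overlap, distance and coverage functions were tested on simulated lists. Distances were taken to 77221 start sites of GENCODE M21 (basic), and genes were its protein-coding genes. Sequence came from RefSeq GRCm38.p6 in windows of 500 bp around domain centres, which run past the edges of narrower domains. Exact 95% Clopper-Pearson intervals cover counting error only. No test was made between lists. Named genes were the 10 with the most gained and the 10 with the most lost domains, ties by summed width and genes with shared domains kept once, then listed genes with 3 or more and *Sox9*, *Trp63*, *Gata3*, *Vim*, *Runx1*, *Krt5* and *Krt14*. One gene that this rule names is not reported here. Named domains were the 5 of highest fold per direction at least 500 bp wide. Python 3.11.15, numpy 2.4.6, pandas 2.3.3 and scipy 1.17.1 were used.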

Additional observations from a re-analysis of the deposited data

How the results depend on the processing

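No paired analysis was possible because each condition has 1 list of merged replicates, and for the same reason no replicate could be left out. Depth, which is unknown, limits how far a missing domain is a lost one. The numbers of gained and lost domains stayed within 1.5 times of 31867 and 19356 under all alternatives but the following. When each list kept the domains scored over its median, 20703 were gained. With only domains at least 1000 bp wide, 5725 were gained and 2574 lost. Gained domains outnumbered lost ones in every setting, but this order is largely set by the greater length of the ΔTA-SOX9 list. With lists of equal length 24292 were gained and 24197 lost.

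Genes with several (3 or more) gained and several lost domains numbered 2885 and 1479 with q of at most 0.01 against the other list in full, 3348 and 5148 with lists of equal length, 153 and 36 with domains at least 1000 bp wide, 8655 and 5404 with the gene body, 922 and 546 within 20 kb and 1082 and 470 at 5 or more domains. Above the median score 3217 genes had several gained domains.

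The distal share of gained and of lost domains was 85.2% and 79.8% with an overlap of 50%, 85.6% and 78.5% with q of at most 0.01 in both lists, 82.0% and 71.6% above the median score, 86.8% and 79.3% with lists of equal length, 85.1% and 76.8% at 1000 bp or more, 86.8% and 81.3% with a gap over 1000 bp, and 92.6% and 88.1% beyond 1000 bp and 61.4% and 54.6% beyond 10 kb from a start. With q of at most 0.01 against the other list in full it was 86.8% for gained domains.

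The share found in skin was 27.8% of gained and 51.6% of lost domains with an overlap of 50%, 28.7% and 55.0% with q of at most 0.01, and, chosen after seeing the data, 25.9% and 44.1% with skin at W2. In windows of 200 bp the gained and lost shares were 16.0% and 8.77% for AP1, 2.71% and 2.67% for SOX and 5.96% and 9.43% for KLF. With q of at most 0.01, AP1 was in 35.1% of gained and KLF in 20.6% of lost domains. The forms of AP1 with C or G (24.7% and 13.7%) and with A or T (11.4% and 6.94%) at the centre were also chosen after seeing the data. Counts of the other variants stayed within 1.5 times in lists of equal length and with q of at most 0.01.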
